A study of Rattus norvegicus with 57 samples.

Results

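This account concerns the nuclear genes of rat liver that encode the proteins of the mitochondrial ribosome. Members were all genes whose single symbol in the array annotation was Mrpl or Mrps followed by a number, which gave 76 genes of the 10725 genes tested. All 76 passed the filter on low values, and each is represented by its probe set of highest mean log2 signal out of 100 probe sets in all. In structures of the mammalian particle, 51 of the 76 encoded proteins lie in the large subunit and 25 in the small subunit. Of the same 76 proteins, 44 were classed as having a bacterial homologue and 32 as specific to mitochondria. The second class includes Mrps18a and Mrps18b, although both are relatives of bacterial S18.

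Male Han Wistar rats, 8 to 10 weeks old and weighing 170 to 200 g, received methapyrilene by daily oral gavage in a carboxymethylcellulose vehicle, and RNA from whole liver was hybridised to rat expression arrays, 1 array per animal. Methapyrilene is an antihistamine that injures the rat liver. The doses were 0 mg/kg (vehicle control), 30 mg/kg and 80 mg/kg per day, and livers were taken after 4, 8 or 15 days of dosing, or on day 24, when rats dosed for 14 days had been left untreated for 10 days. The vehicle control groups held 5, 5, 5 and 4 arrays on days 4, 8, 15 and 24, the 30 mg/kg groups held 5, 5, 5 and 4, and the 80 mg/kg groups held 4, 5, 5 and 5, 57 arrays in all; the submitters state 6 animals per group. The labels call them biological replicates and give no batch.

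Mitochondria keep their own ribosome, which translates the few messenger RNAs of the mitochondrial genome into core subunits of the respiratory chain and ATP synthase. All proteins of that ribosome are encoded in the nucleus, made on cytosolic ribosomes and imported, and many have no counterpart in bacteria. Nuclear respiratory factors, ETS-family factors such as GABP, and YY1 are known regulators of nuclear genes for mitochondrial proteins, and liver, with its high oxidative metabolism, is rich in mitochondria.

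On these arrays many members rose while rats were being dosed with 80 mg/kg and some fell, and no member remained above its controls, by the test, after recovery. Calls are adjusted p-values under 0.05 in limma against the same day's controls, on the deposited scale. On day 4, 28 members rose and 0 fell, where 18.3% of all 10725 genes rose and 9.19% fell. On day 8, 35 members rose and 7 fell, where 34.2% of genes rose and 16.6% fell. On day 15, 45 members rose and 6 fell, where 38.8% of genes rose and 20.5% fell. On day 24, 0 members rose and 18 fell, where 7.15% of genes rose and 3.08% fell. At an unadjusted p under 0.05, 0 members were lower on day 4, and 1 was higher and 33 were lower on day 24. The shares of all genes under that unadjusted threshold were not counted. At 30 mg/kg the same test called 1 member on day 4, 0 on day 8, 5 on day 15 and 0 on day 24. Because the samples are bulk tissue, fewer cells of a type and less RNA per cell cannot be told apart in any of these values.

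How the arrays are scaled moved these counts. The deposited values put every array at the same trimmed mean, and on that scale the median of all genes itself shifted at 80 mg/kg by 0.08, 0.15, 0.16 and 0.04 log2 on days 4, 8, 15 and 24. With arrays shifted to a common median of all probe sets instead, 8 members rose and 6 fell on day 4 (8.79% and 14.9% of all genes), 15 rose and 26 fell on day 8 (16.5% and 27.9%), 37 rose and 7 fell on day 15 (28.9% and 26%), and 0 rose and 66 fell on day 24 (2.49% and 31.3%). The array median that this scaling uses was 14.99 to 21.12 signal units, near the filter value of 17.09, whereas members read 60.06 to 1833. On day 24 it was 18.90 to 21.12 at 80 mg/kg and 15.88 to 17.78 in controls. The scaling therefore lowered those treated arrays, relative to their controls, by more than the 0.04 log2 shift of all genes. Under quantile normalization 30 rose and 0 fell on day 4 (15.7% and 10.6% of all genes), 35 rose and 11 fell on day 8 (25.2% and 20.3%), 48 rose and 7 fell on day 15 (31% and 25%), and 0 rose and 16 fell on day 24 (4.3% and 2.91%). Called in the same direction on all 3 scales were 8 rises on day 4, 15 rises and 5 falls on day 8, 37 rises and 5 falls on day 15, and 16 falls on day 24. The shares of all genes called on all 3 scales are not given here, so these counts have no background beside them.

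Series-wide facts that bear on these values were few. Within groups, arrays correlated at 0.924 to 0.949 (median 0.936) over all probe sets other than the array controls. Over all pairs of arrays the median was 0.926. The array median ran from 14.99 to 21.12 and was highest in the 80 mg/kg livers of day 24, at 18.90 to 21.12, against 15.88 to 17.78 in their controls. The 3′/5′ signal ratio of actin, a sign of RNA integrity, was 3.77 to 6.37 on days 4 to 15. On day 24 it was 5.84 to 6.76 in 80 mg/kg livers and 6.04 to 9.76 in control livers, which overlapped with that range. In 30 mg/kg livers of day 24 it was 6.54 to 9.30, above that range. Group medians were 4.27 to 5.29 on days 4 to 15 and 6.37 to 6.91 on day 24. The liver label was borne out by the hepatocyte markers Alb, Apoa1, Ttr, Cps1 and Cyp2e1, the lowest of which read 3031 on any array.

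Promoter windows were matched for 62 of the 76 members in the RefSeq table of assembly GRCr8, each covering 250 bases before and 50 bases after an annotated start, and 2 members had several windows. The windows below are those of the 3 paralogues of ribosomal protein S18, which share an origin, and 1 of the windows of Mrps21, the member with the largest fall on day 15. Both strands were searched for the palindromic site of NRF-1 and for CCGGAAG (the ETS factor GABPA), AAGATGGC (YY1), CACGTG (the E-box bound by MYC and others) and TGATGNAA (part of the composite site of ATF4), and capitals mark the matches, none of which overlaps another in these windows. CTTCCGG is the ETS word read on the other strand.
Mrps18a, chr9:22367331-22367630, minus strand: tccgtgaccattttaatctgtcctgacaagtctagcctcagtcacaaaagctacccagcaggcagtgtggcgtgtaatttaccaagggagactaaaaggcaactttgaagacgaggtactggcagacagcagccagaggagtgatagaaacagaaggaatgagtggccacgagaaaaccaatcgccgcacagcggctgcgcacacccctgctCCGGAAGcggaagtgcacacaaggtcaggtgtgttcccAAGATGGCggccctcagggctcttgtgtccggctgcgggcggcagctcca
Mrps18b, chr20:2842756-2843055, plus strand: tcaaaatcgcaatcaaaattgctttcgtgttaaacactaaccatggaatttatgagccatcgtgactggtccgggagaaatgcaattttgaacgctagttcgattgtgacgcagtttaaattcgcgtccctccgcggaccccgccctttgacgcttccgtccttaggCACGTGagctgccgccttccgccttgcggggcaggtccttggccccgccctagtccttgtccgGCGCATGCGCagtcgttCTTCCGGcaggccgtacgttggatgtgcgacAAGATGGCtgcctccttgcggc
Mrps18c, chr14:9122857-9123156, minus strand: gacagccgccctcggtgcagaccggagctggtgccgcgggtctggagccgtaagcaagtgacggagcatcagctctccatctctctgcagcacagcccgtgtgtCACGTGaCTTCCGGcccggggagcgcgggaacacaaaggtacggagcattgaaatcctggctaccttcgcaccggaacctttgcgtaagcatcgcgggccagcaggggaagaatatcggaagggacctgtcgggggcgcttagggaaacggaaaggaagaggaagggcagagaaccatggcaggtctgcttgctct
Mrps21, chr2:186103302-186103601, minus strand: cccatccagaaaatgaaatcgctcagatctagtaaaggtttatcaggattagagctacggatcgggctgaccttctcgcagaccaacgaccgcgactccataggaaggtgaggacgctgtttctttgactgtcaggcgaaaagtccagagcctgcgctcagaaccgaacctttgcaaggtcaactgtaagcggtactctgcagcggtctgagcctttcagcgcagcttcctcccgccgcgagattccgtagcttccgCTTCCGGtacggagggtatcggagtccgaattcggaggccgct
The Mrps18b window held the E-box, NRF-1, ETS and YY1 words, that of Mrps18a the ETS and YY1 words, that of Mrps18c the E-box and ETS words, and that of Mrps21 the ETS word. These are matches of letters and not measured binding.

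Over the 64 windows of the members, the ETS word occurred in 31.2% of windows and in 8.74% of all 33469 windows in the table. For YY1 the shares were 21.9% of member windows and 3.17% of all windows, for NRF-1 6.25% and 0.852%, for the E-box 10.9% and 6.42%, and for ATF4 3.12% and 3.98%. Among the 35 members with a window that rose on day 15, 11 held the ETS word, 10 the YY1 word and 3 the NRF-1 word; among the 22 members with a window that were not called on day 15, 7, 4 and 1 did; and among the 5 that fell, 2, 0 and 0 did. Median GC content was 55.7% in member windows and 51.7% in all windows, and the shares were not adjusted for it. No test was run on these counts.

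The median of the members differed by day. The median log2 fold change of the 76 members at 80 mg/kg was 0.18 on day 4, 0.13 on day 8, 0.33 on day 15 and -0.14 on day 24, beside 0.08, 0.15, 0.16 and 0.04 for all genes. On day 8 the member median lay close to the median of all genes, with 38 members above it and 38 not, and with arrays at a common median it was -0.09. On day 15, 45 of 76 members lay above the median of all genes, and on day 24, 4 of 76 did.

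**Figure D1:**
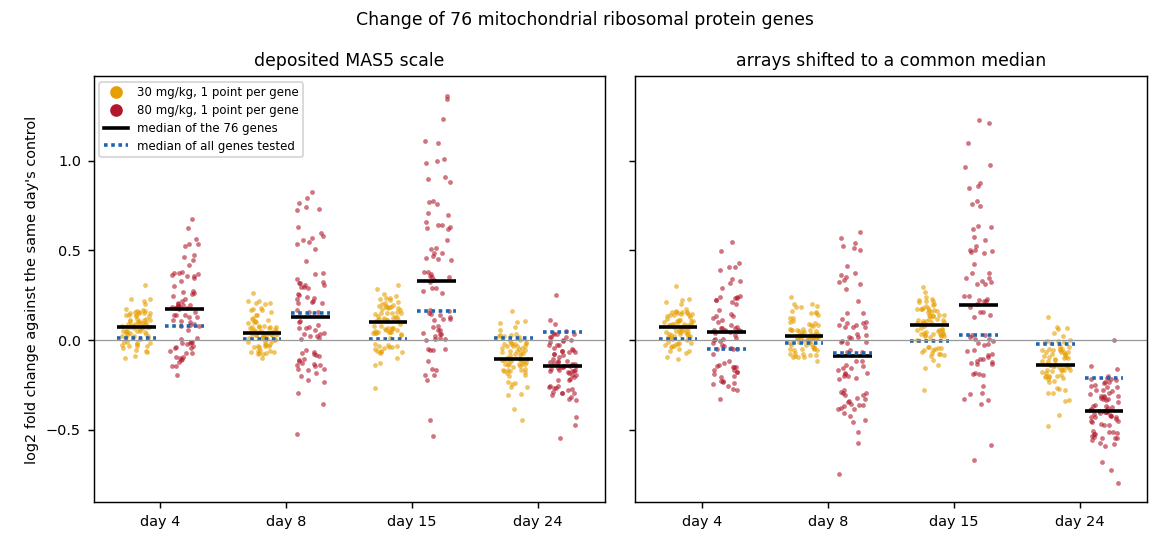
Log2 fold change of each of the 76 genes against the same day's controls (vertical axis) for 30 and 80 mg/kg on days 4, 8, 15 and 24, on the deposited scale (left) and with arrays at a common median (right); points are genes, black bars their median and dotted blue bars the median of all genes tested. At 80 mg/kg the spread among members is widest on day 15, from -0.53 to 1.36 on the deposited scale, and the day 24 median is below that of all genes on both scales.

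The median signal of the 76 members within each array showed the same course. On day 15 it was 443 to 476 in 80 mg/kg livers and 341 to 357 in control livers, with no overlap. On day 4 the ranges were 399 to 426 at 80 mg/kg and 345 to 371 in controls, on day 8 they were 388 to 439 and 343 to 358, and on day 24 they were 306 to 356 and 336 to 358, where the groups overlapped. A rank within the array does not depend on array scaling: the median member stood above 82.0% to 83.1% of all genes in 80 mg/kg livers on day 15 and above 78.8% to 79.3% in their controls. The same rank was 76.8% to 79.7% in 80 mg/kg livers and 78.4% to 79.3% in controls on day 24. On day 4 it was 81.2% to 82.0% and 78.7% to 80.0%, and on day 8 80.6% to 82.0% and 78.7% to 79.3%. The day 8 ranks did not overlap, although the median change of the members was then close to that of all genes. A rank also depends on changes in the other genes, so it is not a measure of the members alone.

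**Figure D2:**
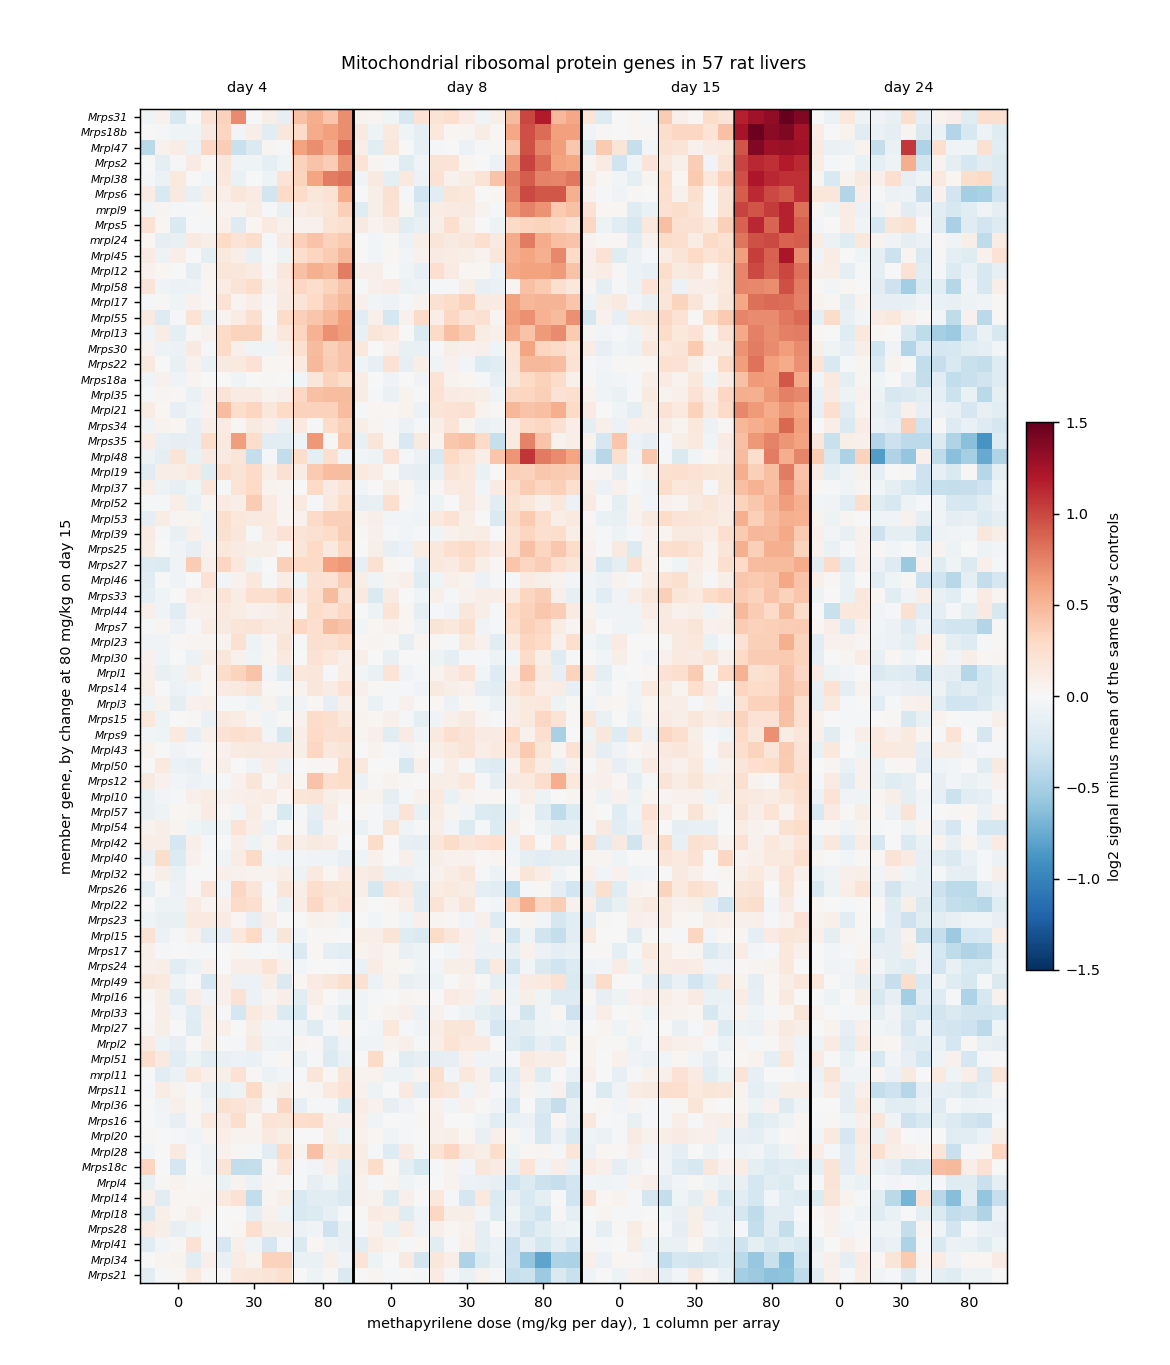
Log2 signal of the 76 member genes (rows, ordered by their change at 80 mg/kg on day 15) in 57 livers (columns, by day and by dose in mg/kg per day), minus the mean of the same day's controls. Red is above and blue below the controls; the 80 mg/kg columns are reddest on day 15 and turn pale or blue on day 24, and Mrps21 and Mrpl34 in the bottom rows run the other way on days 8 and 15.

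Calls of different dosing days were set side by side. All 28 members that rose on day 4 also rose on day 15, where they made up 62.2% of the 45 that rose. Among all genes, 88.7% of the 1966 genes of any kind that rose on day 4 rose on day 15. There they made up 41.9% of the 4160 genes that rose. Of the 35 members that rose on day 8, 34 (97.1%) also rose on day 15, beside 83.4% of the 3664 genes of any kind. Those 34 made up 75.6% of the 45 members that rose on day 15, beside 73.5% among all genes. The differences of these shares from those of all genes were not tested. In all, 27 members rose on days 4, 8 and 15, and the share of all genes that did so was not counted. These comparisons use different animals and different controls. Of the 45 members that rose on day 15, 38 had a mean below that of the controls on day 24, beside 37.7% of the 4160 genes that rose on day 15. By the test, 10 members rose on day 15 and fell on day 24, and 17 members were called on none of the 4 days. The shares of all genes with these patterns were not counted either.

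Among small-subunit proteins, Mrps31 and Mrps18b changed most on day 15. Mrps31, a small-subunit protein without a bacterial homologue, had signals of 153, 164, 171, 218 and 179 in 80 mg/kg livers, against 77.6, 60.1, 68.4, 69.7 and 67.5 in control livers. Each treated liver exceeded each control. The log2 fold change was 1.36 ± 0.12 (SE), 2.57-fold, with adjusted p = 1.16e-13 (limma, Benjamini-Hochberg), and means were 177 ± 25 and 68.7 ± 6.24 signal units at 80 mg/kg and in controls (SD, n = 5 each). Its log2 fold change was 0.52 on day 4 (adjusted p = 0.00187) and 0.74 on day 8 (adjusted p = 1.60e-06), and on day 24 it was 0.09 (adjusted p = 0.694).

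Mrps18b, 1 of 3 mammalian relatives of bacterial S18, read 888, 1039, 960, 996 and 894 in 80 mg/kg livers on day 15, against 362, 381, 375, 382 and 379 in control livers. The lowest treated value was above the highest control. The log2 fold change was 1.34 ± 0.08 (SE), 2.54-fold, with adjusted p = 9.92e-20. Mrps18b had already risen by day 4 (log2 fold change 0.54, adjusted p = 2.75e-06) and was at -0.21 on day 24, which did not pass the test (adjusted p = 0.107) but did with arrays at a common median (-0.46, adjusted p = 0.000663).

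Mrps2, the relative of bacterial S2 at the back of the small subunit, read 398, 431, 422, 452 and 428 at 80 mg/kg on day 15, against 203, 215, 160, 189 and 226 in controls, without overlap (log2 fold change 1.11 ± 0.10 SE, adjusted p = 1.47e-13). Mrps6, the relative of bacterial S6, which pairs with S18 in the bacterial particle, had the largest rise of day 8, with 220, 263, 252, 253 and 192 at 80 mg/kg, against 133, 141, 155, 130 and 108 in controls. All treated livers were above all controls (log2 fold change 0.82 ± 0.11 SE, adjusted p = 1.47e-08), and on day 15 the change was 1.01 (adjusted p = 2.69e-11). Mrps5, the relative of bacterial S5 near the messenger RNA entry, read 208, 209, 229 and 235 at 80 mg/kg on day 4, against 232, 204, 171, 199 and 196 in controls (adjusted p = 0.293), and 293, 348, 291, 353 and 296 on day 15, against 197, 151, 143, 134 and 178 in controls (log2 fold change 0.98 ± 0.09 SE, adjusted p = 2.05e-13).

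Values of the 3 S18 relatives were set side by side. In structures of the mammalian particle the Mrps18a protein sits in the large subunit and the Mrps18b and Mrps18c proteins in the small one, and Mrps18c takes the place of bacterial S18. Mrps18a read 413, 473, 471, 583 and 454 at 80 mg/kg on day 15, against 308, 294, 296, 301 and 327 in controls, without overlap, and rose by 0.64 ± 0.07 (SE) log2 (adjusted p = 8.01e-11). Mrps18c read 205, 173, 165, 168 and 167 at 80 mg/kg, against 206, 200, 172, 182 and 189 in controls, and the groups overlapped (log2 fold change -0.12 ± 0.11 SE, adjusted p = 0.358). A second Mrps18c probe set that passed the filter rose on day 15 (0.25, adjusted p = 0.0136 over all probe sets). Under quantile normalization the Mrps18c probe set used here passed the test as lower (-0.27, adjusted p = 0.0253). On day 24 Mrps18a fell (log2 fold change -0.27, adjusted p = 0.0166). For Mrps18c the probe set used was at 0.25 (adjusted p = 0.146) and the second one fell (-0.37, adjusted p = 0.00925 over all probe sets), so the direction of Mrps18c depends on the probe set. The differences between the paralogues were not tested.

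**Figure D3:**
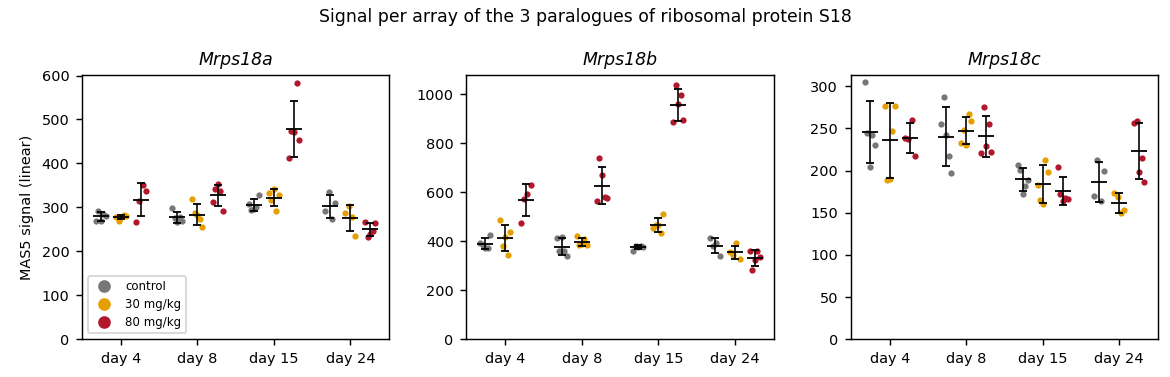
MAS5 signal (linear axis from 0) of Mrps18a, Mrps18b and Mrps18c in each liver by day, for control, 30 mg/kg and 80 mg/kg; points are livers, and bars give the mean and SD. On day 15 the 80 mg/kg livers read 413 to 583 for Mrps18a and 888 to 1039 for Mrps18b, above all control livers, and 165 to 205 for the Mrps18c probe set used, overlapping with the controls.

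In the large subunit, Mrpl47, the relative of bacterial L29 beside the exit of the peptide tunnel, led the rises of day 4 and of day 15. On day 4 it read 190, 203, 185 and 224 at 80 mg/kg, against 94.7, 131, 135, 118 and 156 in controls (log2 fold change 0.68 ± 0.17 SE, adjusted p = 0.00183). On day 15 it read 234, 317, 294, 299 and 291 at 80 mg/kg, against 106, 159, 138, 95.7 and 118 in controls (log2 fold change 1.23 ± 0.16 SE, adjusted p = 3.18e-09). The groups did not overlap on either day, and on day 24 the log2 fold change was 0.03 (adjusted p = 0.924).

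Mrpl38, a protein of the central protuberance without a bacterial homologue, read 109, 131, 147 and 152 at 80 mg/kg on day 4, against 85.6, 81.6, 95.7, 86.8 and 84.1 in controls (log2 fold change 0.63 ± 0.10 SE, adjusted p = 2.03e-06). Its changes on days 8 and 15 were 0.79 (adjusted p = 4.25e-10) and 1.10 (adjusted p = 6.91e-15). Mrpl12, the stalk protein that recruits translation factors, read 768, 823, 803 and 964 at 80 mg/kg on day 4, against 594, 578, 569, 514 and 582 in controls, and rose by 0.56, 0.57 and 0.88 log2 on days 4, 8 and 15 (adjusted p = 7.14e-08, 1.20e-09 and 7.48e-16). Both were above every control in every treated liver of day 4.

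Mrpl13, the relative of bacterial L13, and Mrpl48, which has no bacterial homologue, rose during dosing and fell after it. Mrpl13 read 365, 416, 467 and 449 at 80 mg/kg on day 4, against 281, 315, 264, 295 and 304 in controls (log2 fold change 0.54 ± 0.09 SE, adjusted p = 1.39e-05), and 206, 201, 239, 273 and 248 on day 24, against 298, 292, 258 and 325 in controls (-0.33 ± 0.09 SE, adjusted p = 0.0152). Mrpl48 read 192, 256, 209, 200 and 184 at 80 mg/kg on day 8, against 118, 116, 142, 121 and 115 in controls (0.76 ± 0.15 SE, adjusted p = 2.93e-05). On day 24 it read 137, 116, 127, 106 and 131 at 80 mg/kg, against 233, 151, 129 and 228 in controls, with 1 control inside the range of the treated livers (-0.54 ± 0.16 SE, adjusted p = 0.0211).

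**Figure D4:**
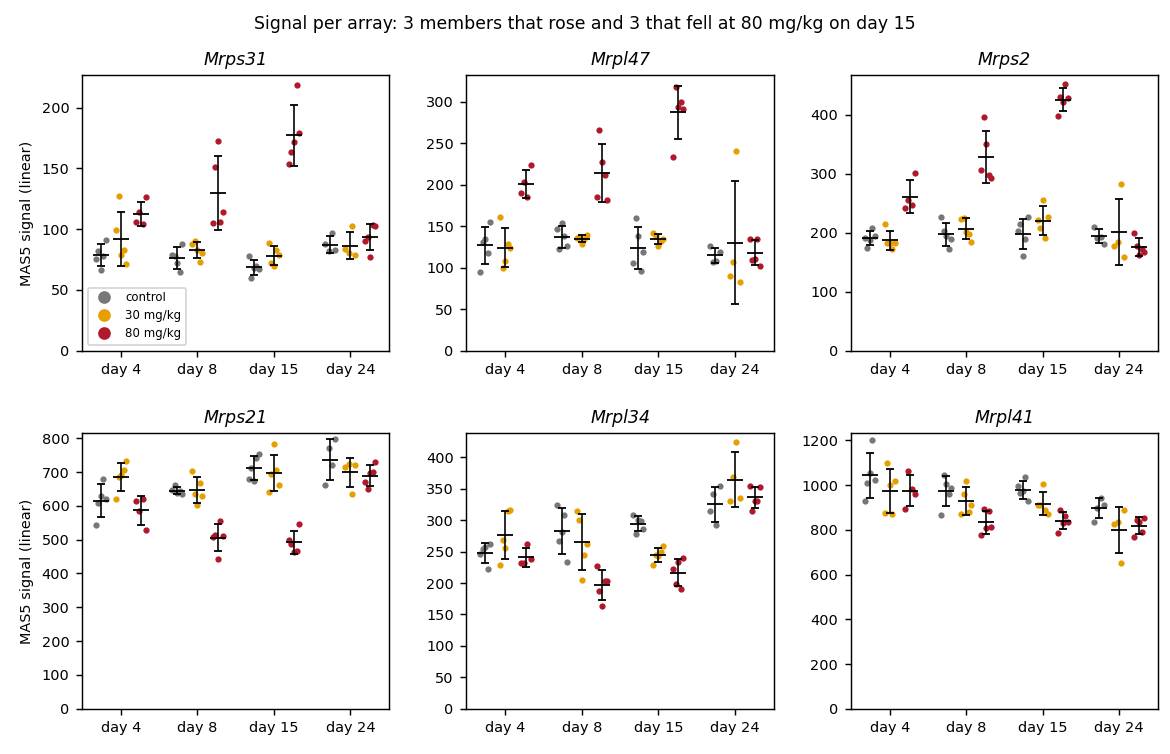
MAS5 signal (linear axis from 0) of 6 members in each liver by day, for control, 30 mg/kg and 80 mg/kg; points are livers, and bars give the mean and SD. In the top row (Mrps31, Mrpl47, Mrps2) the 80 mg/kg livers of day 15 lie above all controls of day 15, in the bottom row (Mrps21, Mrpl34, Mrpl41) they lie below all controls of day 15.

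On day 15, 6 members fell and 25 were not called. Mrps21, the relative of bacterial S21, read 500, 488, 462, 466 and 546 at 80 mg/kg on day 15, against 678, 713, 673, 740 and 753 in controls, with no overlap (log2 fold change -0.53 ± 0.06 SE, adjusted p = 1.92e-10). On day 8 it had read 508, 514, 442, 554 and 510 at 80 mg/kg, against 645, 662, 639, 645 and 634 in controls (-0.35 ± 0.06 SE, adjusted p = 4.11e-06). On day 4 its log2 fold change was -0.07 (adjusted p = 0.474), and on day 24 -0.09 (adjusted p = 0.370).

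Mrpl34, the relative of the small basic bacterial protein L34, read 227, 187, 163, 204 and 202 at 80 mg/kg on day 8, against 325, 267, 281, 308 and 233 in controls (log2 fold change -0.52 ± 0.09 SE, adjusted p = 7.15e-06). On day 15 it read 222, 198, 233, 190 and 239 at 80 mg/kg, against 309, 278, 300, 299 and 286 in controls (-0.45 ± 0.09 SE, adjusted p = 5.57e-05). Treated livers were below all controls on both days. On day 24 the log2 fold change was 0.05 (adjusted p = 0.785).

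Smaller falls were called for Mrpl41, Mrps28, Mrpl4 and Mrpl15. Mrpl41, a large-subunit protein without a bacterial homologue, read 787, 889, 831, 863 and 833 at 80 mg/kg on day 15, against 994, 965, 973, 1037 and 927 in controls (log2 fold change -0.22 ± 0.07 SE, adjusted p = 0.00497), and lost the call under quantile normalization (adjusted p = 0.346). Mrps28, of the small subunit, read 279, 222, 256, 223 and 272 at 80 mg/kg on day 15, against 283, 259, 290, 308 and 291 in controls, with overlap (-0.20 ± 0.07 SE, adjusted p = 0.0135). That call was lost without 80 mg/kg replicate 2 (adjusted p = 0.0658) or replicate 4 (adjusted p = 0.0627).

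Mrpl4, which lines the peptide tunnel in bacteria, fell on day 8, with 459, 487, 451, 442 and 460 at 80 mg/kg, against 590, 552, 580, 539 and 552 in controls (log2 fold change -0.29 ± 0.05 SE, adjusted p = 5.98e-06). Mrpl15, the relative of bacterial L15, read 878, 1023, 871, 832 and 953 at 80 mg/kg on day 8, against 1145, 1149, 1225, 939 and 920 in controls, with overlap (-0.23 ± 0.09 SE, adjusted p = 0.0333). The Mrpl15 call was lost without any one of control replicates 1, 2 and 3 or 80 mg/kg replicates 1, 3 and 4 (adjusted p = 0.0633 to 0.116), and under quantile normalization (0.295).

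The members were also split by type of protein for day 15. Among the 32 members classed as specific to mitochondria 23 rose and 1 fell, with a median log2 fold change of 0.46. Mrps18a and Mrps18b are counted among those 23. Among the 44 classed as having a bacterial homologue 22 rose and 5 fell, with a median of 0.14. With arrays at a common median the counts were 21 and 1 of 32 (median 0.33) and 16 and 6 of 44 (median 0.00). By subunit, 29 of 51 large-subunit members rose and 4 fell (median 0.32), and 16 of 25 small-subunit members rose and 2 fell (median 0.34). The difference between these classes was not tested. The change on day 15 also ran with signal level. Of the 19 members of lowest control signal 16 rose and 0 fell (median 0.63). Of the 19 of highest control signal 6 rose and 4 fell (median 0.08). The Spearman correlation of change with control signal was -0.43 for the members and -0.32 for all genes. The part of signal level in the class counts was not tested. On day 24, 6 of the 32 members classed as specific to mitochondria fell, and 12 of the 44 classed as having a bacterial homologue.

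After recovery, the 18 members that fell at 80 mg/kg had small changes. The largest, after Mrpl48, were in Mrps35, Mrpl14 and Mrpl13. Mrps35, a small-subunit protein without a bacterial homologue, read 262, 220, 196, 163 and 262 at 80 mg/kg on day 24, against 338, 240, 321 and 317 in controls, with overlap (log2 fold change -0.47 ± 0.16 SE, adjusted p = 0.0438). Mrpl14, which sits at the interface of the subunits, read 175, 150, 209, 156 and 183 at 80 mg/kg, against 203, 264, 242 and 228 in controls (-0.43 ± 0.12 SE, adjusted p = 0.0141), and 4 of the 5 treated livers were below all controls.

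These calls rest on few arrays. Without control replicate 3, control replicate 5 or 80 mg/kg replicate 2, 10 members fell on day 24 in each case. The Mrps35 call was lost without any of 6 arrays (adjusted p = 0.0713 to 0.145), the Mrpl48 call without any of 4 (0.0505 to 0.118), the Mrpl14 call without control replicate 3 (0.0707) or 80 mg/kg replicate 2 (0.0531), and the Mrpl13 call without control replicate 5 (0.0748) or 80 mg/kg replicate 2 (0.0628). The 80 mg/kg arrays of that day also had the highest array medians, and the part of this in the falls was not tested beyond the scalings above.

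The change between days was tested directly. From day 4 to day 15 the log2 fold change at 80 mg/kg moved upward for 21 members and downward for 2, against 14.3% and 10.1% of all genes. From day 15 to day 24 it moved upward for 2 and downward for 52, against 16.6% and 26.1%. The largest gains to day 15 were in Mrps5 (0.84 ± 0.13 SE log2, adjusted p = 4.63e-06), Mrps31 (0.84 ± 0.18, adjusted p = 0.000402) and Mrps18b (0.81 ± 0.12, adjusted p = 1.17e-06), and the 2 declines were in Mrps21 (-0.46 ± 0.09, adjusted p = 0.000119) and Mrpl34 (-0.40 ± 0.14, adjusted p = 0.0247). The Mrpl34 difference missed the threshold with arrays at a common median (adjusted p = 0.0506) and without any of 4 arrays (0.0517 to 0.0621).

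From day 15 to day 24 the effect declined most in Mrps18b (-1.55 ± 0.12 SE log2, adjusted p = 1.46e-14), Mrps6 (-1.31 ± 0.16, adjusted p = 2.59e-09) and Mrps31 (-1.27 ± 0.18, adjusted p = 9.09e-08). The members whose log2 fold change moved upward were Mrpl34 (0.50 ± 0.14, adjusted p = 0.00256) and Mrps21 (0.44 ± 0.09, adjusted p = 8.13e-05). Both genes had fallen on day 15 and were not called on day 24, so their fall was lost after recovery. Both differences between days use the day 15 arrays, with opposite sign, so an opposite direction in them is partly built in. With arrays at a common median the log2 fold change moved upward for 2 members and downward for 55 from day 15 to day 24, against 11.4% and 30.7% of all genes.

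The lower dose moved few members. Against controls, 1 member rose at 30 mg/kg on day 4 (0.531% of all genes rose), 0 were called on day 8 (0.233% of genes in either direction), 5 rose on day 15 (2.71% of genes) and 0 were called on day 24 (0.0932% of genes). At an unadjusted p under 0.05 the counts were 11, 9, 27 and 15 members on days 4, 8, 15 and 24. Shares of all genes under the unadjusted threshold were not counted, on this scale or at a common median, so unadjusted counts have no background here. With arrays at a common median 0 members were called on any of the 4 days (at an unadjusted p under 0.05, 3 were higher on day 4, 3 higher on day 8, 10 higher and 1 lower on day 15, and 14 lower on day 24), and 0.364%, 0.131%, 2.8% and 0.0466% of all genes were called on days 4, 8, 15 and 24. The median log2 fold change of the members at 30 mg/kg was 0.08, 0.04, 0.10 and -0.10 on days 4, 8, 15 and 24, beside 0.01, 0.00, 0.01 and 0.01 for all genes.

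Mrpl21, the relative of bacterial L21, read 220, 192, 199, 179 and 196 at 30 mg/kg on day 4, against 173, 162, 146, 152 and 165 in controls, without overlap (log2 fold change 0.30 ± 0.07 SE, adjusted p = 0.0173). Mrps18b read 453, 468, 466, 433 and 510 at 30 mg/kg on day 15, against 362, 381, 375, 382 and 379 in controls, without overlap (0.31 ± 0.08 SE, adjusted p = 0.0164). Mrps33, a small-subunit protein without a bacterial homologue, read 755, 665, 650, 709 and 737, against 562, 528, 569, 627 and 664 in controls, and 1 treated liver was within the control range (0.26 ± 0.08 SE, adjusted p = 0.0384). None of these 3 passed with arrays at a common median (adjusted p = 0.138, 0.0710 and 0.188 for Mrpl21, Mrps18b and Mrps33).

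The 30 mg/kg calls also turned on single arrays. The Mrpl21 call was lost without control replicate 3 (adjusted p = 0.0792) or 30 mg/kg replicate 1 (0.0549), the Mrps18b call without 30 mg/kg replicate 5 (0.0634), and the Mrps33 call without any of 7 arrays (0.0503 to 0.119). The 5 calls of day 15 became 0 without 30 mg/kg replicate 5, 1 without 30 mg/kg replicate 1, 2 without control replicate 2, control replicate 4 or 30 mg/kg replicate 2, and 3 without control replicate 3 or 30 mg/kg replicate 3.

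Set directly against 30 mg/kg, 80 mg/kg gave 14 higher and 3 lower members on day 4 (13.2% and 6.84% of all genes), 29 and 10 on day 8 (31.6% and 14.6%), 41 and 2 on day 15 (37% and 18.3%), and 2 and 3 on day 24 (4.54% and 2.23%). With arrays at a common median the counts were 5 higher and 5 lower on day 4 (5.2% and 11.5%), 11 and 28 on day 8 (13.9% and 24.3%), 27 and 10 on day 15 (26.3% and 23.3%), and 0 and 45 on day 24 (2.03% and 25.9%). These comparisons share the 80 mg/kg arrays with those against controls. On day 15 Mrps31 read 88.8, 72.1, 69.6, 82.8 and 78.4 at 30 mg/kg, below all 80 mg/kg livers (log2 fold change of 80 over 30 mg/kg 1.17 ± 0.12 SE, adjusted p = 1.85e-11). Mrpl47 read 142, 139, 127, 132 and 135 (1.08 ± 0.16, adjusted p = 9.61e-08). Mrps21 read 641, 693, 782, 705 and 661 at 30 mg/kg, above all 80 mg/kg livers (-0.50 ± 0.06, adjusted p = 1.54e-09). Without 80 mg/kg replicate 5, 11 members in all were called on day 4.

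Mrps11, the relative of bacterial S11 in the small-subunit platform, was the other member lower at 80 than at 30 mg/kg on day 15, with 246, 217, 223, 251 and 254 at 80 mg/kg, against 285, 282, 263, 268 and 268 at 30 mg/kg (-0.20 ± 0.07 SE, adjusted p = 0.0170). Against controls it did not differ by the test (log2 fold change 0.00, adjusted p = 0.989), and the call was lost without 80 mg/kg replicate 2 (adjusted p = 0.0636). On day 4 Mrpl47 and Mrpl38 were higher at 80 than at 30 mg/kg by 0.71 ± 0.17 and 0.59 ± 0.10 (SE) log2 (adjusted p = 0.00199 and 1.81e-05). Mrpl36, the relative of bacterial L36, read 302, 322, 323 and 286 at 80 mg/kg, against 384, 379, 360, 321 and 407 at 30 mg/kg (-0.26 ± 0.06, adjusted p = 0.00236). Mrps28 was lower by a log2 fold change of -0.23 ± 0.07 (adjusted p = 0.0185), a call lost without 30 mg/kg replicate 3 (0.0684) or 80 mg/kg replicate 4 (0.115).

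On day 8 Mrps6 and Mrps2 exceeded 30 mg/kg by 0.78 ± 0.11 and 0.66 ± 0.10 (SE) log2 (adjusted p = 7.34e-08 and 4.43e-07), and Mrpl34 and Mrps21 were below it by log2 fold changes of -0.42 ± 0.09 and -0.36 ± 0.06 (adjusted p = 0.000225 and 4.86e-06). On day 24 Mrps18c read 256, 259, 199, 215 and 186 at 80 mg/kg, against 174, 169, 150 and 154 at 30 mg/kg, without overlap (0.45 ± 0.11 SE, adjusted p = 0.0121). Mrpl39 read 182, 185, 186, 216 and 206 at 80 mg/kg, against 155, 175, 173 and 152 at 30 mg/kg (0.25 ± 0.06, adjusted p = 0.00845). Neither passed with arrays at a common median (adjusted p = 0.138 and 0.774), nor did Mrps18c with the mean of its probe sets (0.266). Mrps17 read 562, 518, 494, 505 and 614 at 80 mg/kg, against 618, 610, 715 and 640 at 30 mg/kg (-0.26 ± 0.06, adjusted p = 0.00752, and 0.0602 without 30 mg/kg replicate 3), and Mrps5 was at -0.30 ± 0.10 (adjusted p = 0.0484), a call lost in 16 of 22 alternative settings. The 5 calls of day 24 became 2 without 30 mg/kg replicate 3, and 3 without 30 mg/kg replicate 2 or 80 mg/kg replicate 2, 3 or 4.

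For 15 members more than 1 probe set passed the filter, and in 10 of them all passing probe sets changed in the same direction on day 15 at 80 mg/kg. Mrpl52, Mrps14 and Mrps15, named here after their values were seen, had probe sets called in opposite directions. The Mrps18c and Mrpl51 probe sets differed in sign without opposite calls on that day. The probe set used for Mrpl52 changed by 0.48 log2 and the other by -0.67 (adjusted p = 2.91e-07 and 0.00222, over all probe sets). For Mrps14 the values were 0.34 and -0.19 (adjusted p = 1.26e-05 and 0.0494). For Mrps15 they were 0.29 and -0.71 (adjusted p = 3.87e-05 and 0.0110). The second Mrps15 probe set was near the floor, with a geometric mean signal of 13.6, against 377 for the one used. For Mrpl52, Mrps14, Mrps15 and Mrps18c the direction therefore depends on the probe set. The second probe set of Mrps2 changed by 0.42 log2 (adjusted p = 0.262).

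The machinery around the mitochondrial ribosome was examined through lists chosen with earlier results of these data known, and its counts stand beside 38.8% of all genes that rose and 20.5% that fell on day 15. Of 5 further proteins of the particle with other symbols, 5 rose at 80 mg/kg on day 15, among them Gadd45gip1 (0.60 ± 0.08 SE log2) and the small-subunit GTPase Dap3 (0.48 ± 0.08). Of 23 assembly factors 15 rose and 2 fell, with a median of 0.54. For these other genes averages are geometric means over the arrays of a group. The rRNA methyltransferase Mrm3 averaged 69.3 signal units at 80 mg/kg and 30.7 in controls (1.17 ± 0.23 SE log2, adjusted p = 1.69e-05), and the RNA-binding protein Fastkd2 and the RNA helicase Ddx28 changed by 1.12 and 1.07 log2. Rbfa, which helps mature the small subunit, fell to 161 at 80 mg/kg, against 332 in controls (-1.04 ± 0.15 SE log2).

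Translation itself was covered by 11 factors, of which 7 rose and 1 fell on day 15. The elongation factor Gfm2, which acts in ribosome recycling, averaged 60.4 at 80 mg/kg and 34.3 in controls (0.82 ± 0.16 SE log2), and Pdf, the peptide deformylase, fell to 123 at 80 mg/kg, against 152 in controls (-0.30 ± 0.08 SE log2). Of 13 mitochondrial aminoacyl-tRNA synthetases 6 rose and 3 fell, or 4 and 4 on either other scale, and the 46.2% that rose is near the share of all genes: Yars2, which charges tyrosine tRNA, averaged 182 at 80 mg/kg and 78.5 in controls (1.22 ± 0.13 SE log2), and Cars2, which charges cysteine tRNA, averaged 79.5 and 132 (-0.73 ± 0.16). Of 18 genes of mitochondrial DNA expression 7 rose and 2 fell, and the 38.9% that rose is close to the share of all genes. Lrpprc, which stabilises mitochondrial messenger RNAs, averaged 936 at 80 mg/kg and 423 in controls (1.15 ± 0.07 SE log2), and Hsd17b10, a dehydrogenase that is also a subunit of mitochondrial RNase P, averaged 2085 and 3394 (-0.70 ± 0.10).

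**Figure D5:**
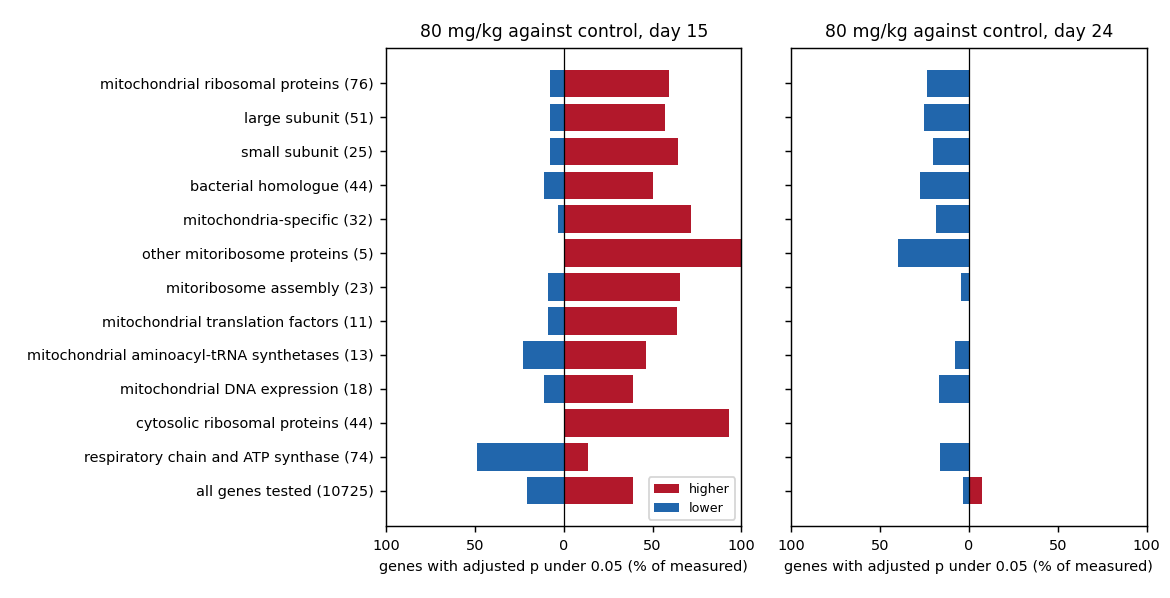
Share of genes higher (red, to the right) and lower (blue, to the left) at 80 mg/kg than in controls, in percent of the genes measured in each list (number in parentheses), on day 15 (left) and day 24 (right), deposited scale, adjusted p under 0.05. On day 15, 45 of 76 mitochondrial ribosomal protein genes were higher, beside 41 of 44 for cytosolic ribosomal proteins and 10 of 74 for the respiratory chain and ATP synthase, whose split turns round under quantile normalization (33 higher and 14 lower).

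Cytosolic ribosomal proteins and the nuclear genes of the respiratory chain, whose mitochondrially encoded partners the mitochondrial ribosome makes, bracketed the members on day 15. Of 44 cytosolic ribosomal protein genes 41 rose and 0 fell (median 0.65), and of 74 respiratory chain and ATP synthase genes 10 rose and 36 fell (median -0.12). The respiratory chain split depended on scaling, with 5 higher and 44 lower after a shift to a common median, against 33 higher and 14 lower under quantile normalization. On day 24 the deposited scale gave 0 calls among the cytosolic genes (1 higher and 2 lower at an unadjusted p under 0.05) and 12 falls among the respiratory chain genes, beside the 18 falls among the members. With arrays at a common median 37, 69 and 66 genes of the same lists fell.

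Known regulators and stress genes moved on the same arrays. Of 12 regulators on the list 9 rose and 0 fell on day 15, among them Ddit3, a transcription factor of the integrated stress response, which averaged 640 at 80 mg/kg and 72.4 in controls (3.15 ± 0.26 SE log2), Myc (1.84 ± 0.39) and the nuclear receptor Esrra, which averaged 112 and 32.9 (1.77 ± 0.20). The list also holds Nrf1, Gabpa, Gabpb1 and Yy1, whose values are not given here. Of 13 mitochondrial stress genes 10 rose and 1 fell: the matrix protease Lonp1 averaged 1174 at 80 mg/kg and 415 in controls (1.5 ± 0.08 SE log2), the matrix chaperone Hspa9 changed by 1.02 ± 0.10, and Clpx, the unfoldase of the ClpXP protease, fell to 821 at 80 mg/kg, against 1499 in controls (-0.87 ± 0.10).

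Markers of other cells and of cell division were read on the same arrays. On day 15, 4 of 4 biliary and progenitor markers rose, with summed signals of 948 to 1359 in 80 mg/kg livers and 215 to 280 in control livers. Macrophage markers rose in 5 of 7 cases (3 at a common median on both days), with sums of 2696 to 3323 at 80 mg/kg and 2019 to 2389 in controls, and division genes in 6 of 7, with sums of 981 to 1230 at 80 mg/kg and 428 to 561 in controls. Of 5 hepatocyte markers 0 rose and 2 fell, with 5 lower at a common median and 1 higher under quantile normalization, and their sums overlapped, at 23794 to 34745 at 80 mg/kg and 28585 to 36583 in controls. On day 24, when members fell, 3 of 4 biliary and 6 of 7 macrophage markers were still higher, with sums of 227 to 280 and 2147 to 2597 at 80 mg/kg, against 85.8 to 155 and 1206 to 2247 in controls, and 0 of 7 division genes passed (3 at an unadjusted p under 0.05). Stellate markers rose in 2 of 6 cases and fell in 1 on day 15 (0 and 2 at a common median), with sums of 1222 to 1870 at 80 mg/kg and 1570 to 1891 in controls. On day 24 they rose in 5 of 6 cases (1 at a common median), with sums of 1677 to 2549 at 80 mg/kg and 990 to 1871 in controls. Of 5 endothelial markers 0 rose and 1 fell on day 15 (0 higher and 2 lower at an unadjusted p under 0.05), with sums of 1337 to 1577 at 80 mg/kg and 1407 to 1885 in controls. On day 24, 2 of them rose (0 at a common median). The 2 lymphocyte markers that passed the filter were not called on either day, nor at an unadjusted p under 0.05. None of the markers that passed the filter was listed at 0, and their part in the members' changes was not tested.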

How the data were processed

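The deposited matrix holds 1 intensity value per probe set and array, which the authors computed with MAS5, per the submitters' processing notes; the version, the scan dates and the raw scanner files are not used here. The deposited intensity values share a trimmed mean (2% of values left out at each end) on every array, and were converted to log2 without an offset. Probe sets were named through the platform annotation and RefSeq GRCr8, and a probe set was kept if 4 or more arrays exceeded 17.09 signal units, the median over the whole matrix (18677 probe sets, 14341 with a single symbol, 10725 genes). Group means over 57 arrays in 12 groups were fitted with limma 3.58.1 in R 4.3.3 (lmFit, eBayes with a variance trend), p-values were Benjamini-Hochberg adjusted over 10725 genes, and calls used 0.05. P-values reflect the spread between these livers, and the number of arrays, 4 or 5 per group, limits the precision. The code was tested on simulated data.

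Members, lists and named genes were chosen with earlier results of these data known. Named were the 4 largest called rises and 4 largest falls of each day at 80 mg/kg, 2 and 2 of each other dose comparison, 3 and 3 of each difference between days, the 3 S18 paralogues, and up to 3 called genes each way per other list on day 15. Alternatives were a common median, quantile normalization, other filters, an offset, other handling of probe sets, a constant prior variance, weighted arrays, fits on just the groups compared, a replicate block, a covariate for the actin 3′/5′ ratio, leaving out the 2 arrays of highest ratio, and leaving out each array. Figures were drawn with matplotlib.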

Additional observations from a re-analysis of the deposited data

Results flagged for a closer look

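Of 324 groups of 4 or 5 arrays examined for 26 named members and the member median, 13 had 1 array far from the rest, where chance gives about 1 in 20. Among 80 mg/kg livers, Mrpl47 read 234 in replicate 1 of day 15 (the other arrays 291 to 317), Mrps18c read 205 in replicate 1 of day 15 (others 165 to 173), Mrps17 read 684 in replicate 2 of day 8 (others 598 to 618) and Mrpl21 read 219 in replicate 5 of day 4 (others 202 to 203). Among 30 mg/kg livers, Mrpl15 read 1337 in replicate 3 of day 15 (others 1043 to 1091), Mrps2 read 215 in replicate 1 of day 4 (others 172 to 183), Mrps21 read 635 in replicate 3 of day 24 (others 716 to 723), and the member median was 345 in replicate 4 of day 4 (others 384 to 396). Among control livers, Mrpl14 read 165 in replicate 2 (others 190 to 197), Mrpl4 read 460 in replicate 1 (others 504 to 517) and Mrps17 read 659 in replicate 1 (others 610 to 619), all on day 4. Mrpl48 read 142 in replicate 3 of the day 8 controls (others 115 to 121), and Mrps6 read 109 in replicate 4 of the day 24 controls (others 159 to 167), which also had the highest actin 3′/5′ ratio of all arrays, 9.76.

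The effect of 80 mg/kg differed between days by the test of the difference itself for the members already named. From day 4 to day 15 the log2 difference was 0.84 for Mrps5, 0.84 for Mrps31, 0.81 for Mrps18b, -0.46 for Mrps21 and -0.40 for Mrpl34. From day 15 to day 24 it was 0.50 for Mrpl34, 0.44 for Mrps21, -1.55 for Mrps18b, -1.31 for Mrps6 and -1.27 for Mrps31.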

How the results depend on the processing

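With arrays at a common median, counts of members up and down at 80 mg/kg against controls became 8 and 6 on day 4 and 15 and 26 on day 8, and 66 fell on day 24; the member medians became 0.044, -0.091 (a reversed sign), 0.19 and -0.39 on days 4, 8, 15 and 24. The same scaling called 0 members at 30 mg/kg on days 4 and 15, 10 and 45 for 80 against 30 mg/kg on days 4 and 24, and 15 for the difference of day 15 minus day 4. Quantile normalization gave 11 falls on day 8. Fitting only the groups compared, with fewer arrays behind the spread, gave 7 falls on day 24, 0 members at 30 mg/kg on day 4, and 11 and 0 for 80 against 30 mg/kg on days 4 and 24. For 30 mg/kg on day 15 the count was 3 with no filter, 3 with all probe sets, 13 with array weights and 1 with the actin covariate; array weights gave 1 on day 8, and leaving out the 2 day 24 arrays of highest actin ratio gave 2 on day 24. For 80 against 30 mg/kg on day 24 it was 3 with the mean of probe sets and 3 with the actin covariate. Apart from the scaling, the cause was not tested. Leaving out each array gave 24 to 33 rises and 0 to 1 falls at 80 mg/kg on day 4, 33 to 37 and 6 to 8 on day 8, 44 to 47 and 4 to 6 on day 15, and 10 to 23 falls on day 24; 0 to 1 and 0 to 6 members at 30 mg/kg on days 4 and 15; 11 to 21 and 2 to 7 for 80 against 30 mg/kg on days 4 and 24; and 19 to 27 and 52 to 58 for the differences between days. Of 54 named results none changed sign; 38 of 702 calls were lost under the other settings and 47 of 614 on leaving out an array. No label says that replicate numbers pair the livers. Deviations of same-numbered livers correlated at -0.084 to 0.095, which shows little shared variation but cannot tell how the animals were handled. A replicate block gave 29, 35 and 45 rises on days 4, 8 and 15 and 19 falls on day 24. It changed 1 named call, Mrps5 at 80 against 30 mg/kg on day 24. With 4 or 5 arrays per group, changes near 0.2 log2 lie close to the limit of the test.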
